A study of Mus musculus with 36 samples.

Results

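The genes described here are the 5 subunits of the transcription factor NF-κB (Nfkb1, Nfkb2, Rela, Rel and Relb) and 5 genes that act on it as inhibitors or feedback regulators (Nfkbia, Nfkbid, Nfkbiz, Tnfaip3 and Birc3). They were chosen by symbol, and each of the 10 was found once in every one of 4 deposited tables, among 32940 genes in the table of sorted subsets and 56923 genes in each of the other 3. RNA was sequenced from natural killer (NK) cells of C57BL/6 mice in 36 libraries, 3 per group, and expression is given in TPM, a length-corrected share of a library's transcripts. In the first table, mature CD27-CD11b+ NK cells of the spleen were sorted by receptors for MHC class I from WT (B2m+/+) and from B2m-/- mice (KO), whose cells cannot assemble stable class I molecules. The TP subset was positive for all 3 receptors sorted on (Ly49C, Ly49I, NKG2A), the SP subset for Ly49I alone, and the TN subset for none. In the ionomycin and antibody tables, NK cells were isolated from whole WT splenocytes, other spleen cells thus being present during treatment, after 22 h with vehicle or ionomycin (a calcium ionophore), or after 48 h in medium or on plate-bound antibodies to the activating receptors NKp46 and NKG2D (NKp46_NKG2D) or NKp46 and DNAM-1 (NKp46_DNAM1). The tumour table holds CD27-CD11b+ NK cells of B6 mice taken 10 days after subcutaneous inoculation with 4000000 MC38 B2m-/- cells, a colon carcinoma line. The tables were scaled separately, so groups were compared only within a table, and the tumour group, which has no other group in its table, was only described.

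NF-κB acts as a dimer of its subunits. Nfkb1 encodes p105, the precursor of p50, and Nfkb2 encodes p100, the precursor of p52; neither mature product carries an activation domain of its own, whereas RelA, c-Rel and RelB do. In a resting cell the inhibitor IκBα, made from Nfkbia, holds dimers in the cytoplasm until a signal leads to its degradation, and the released dimers switch on, among other genes, Nfkbia itself, Tnfaip3 and Birc3. Tnfaip3 encodes A20, a ubiquitin-editing enzyme that shuts down signals upstream of NF-κB, and Birc3 encodes cIAP2, a ubiquitin ligase that acts at TNF receptors and limits the alternative pathway through p100 and RelB. Nfkbid (IκBNS) and Nfkbiz (IκBζ) encode atypical IκB proteins that work in the nucleus, where they restrain or assist transcription at selected genes. In NK cells the pathway lies downstream of activating receptors and cytokine receptors.

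Because several of these genes are known targets of the factor they regulate, their start regions were searched for its binding motif. RefSeq promoter windows (GRCm38.p6, 300 bases, from 250 before to 50 after a start) were available for 7 of the 10 genes, namely Nfkb2, Rel, Rela, Nfkbia, Nfkbid, Tnfaip3 and Birc3, in 12 windows. Nfkb1, Relb and Nfkbiz are named only. The NF-κB consensus motif (10 bases, both strands, overlapping matches counted as 1 site in the stretches shown) was present in windows of 5 of these 7 genes, and in windows of 5.14% of the 27025 genes in the table. A looser form, GGG and CC with any bases between them at the same total length, was present in all 7 and in 53.5% of all genes. Matches are letters in a window and not measured binding. The stretches below carry the matches of the 2 genes whose mRNA moved in opposite directions after antibody stimulation (Nfkbid and Tnfaip3) and of Rel and Nfkbia, each 5′ to 3′ on the gene's strand, with the motif in capitals.
Nfkbid, chr7:30422156-30422259, plus strand: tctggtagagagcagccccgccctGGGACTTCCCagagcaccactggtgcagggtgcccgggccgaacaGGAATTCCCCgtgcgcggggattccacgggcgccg
Tnfaip3, chr10:19015411-19015447, minus strand: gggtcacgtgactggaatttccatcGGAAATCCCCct
Rel, chr11:23771026-23771086, minus strand: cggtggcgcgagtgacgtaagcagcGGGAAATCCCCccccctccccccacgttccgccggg
Nfkbia, chr12:55492648-55492701, minus strand: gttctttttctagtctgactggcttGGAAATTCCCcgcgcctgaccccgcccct
In the GENCODE M21 annotation of the same build, the Nfkbid and Tnfaip3 stretches overlap a transcript of their gene but none of its exons. The Rel and Nfkbia stretches lie outside any annotated transcript. The Nfkbid stretch holds 2 sites, 226 and 181 bases before a start, and the Nfkbia site begins 29 bases before one. Nfkb2 also carries sites, such as GGGAATTCCC at chr19:46304698-46304707, whose stretches overlap annotated exons and are not shown at length. The stretch of a further Tnfaip3 site also overlaps an exon. Sites were thus found in genes that rose (Tnfaip3) and in genes that fell (Nfkbid) in the antibody experiment described below.

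The deleted gene was checked first. B2m stood at 2915 to 3420 TPM in the 9 WT subset libraries and at 73.9 to 128 TPM in the 9 KO libraries. TPM keep no record of depth, so the number of genes above 0 stands in for it, at 12290 to 14501 genes in the subset table, 13904 to 15483 in the ionomycin table, 13555 to 18096 in the antibody table and 14155 to 16271 in the tumour table. All groups expressed NK markers, with Ncr1 at 94.0 TPM or more in each library. Of markers of other cells, those of plasma cells summed to 224 to 468 TPM and those of neutrophils to 61.0 to 217 TPM in the KO TP libraries, against at most 51.1 and 5.85 TPM in the other subset libraries. Of the 5 B-cell markers, Ighm alone was well above 0. In bulk RNA, fewer cells of a kind and less RNA per cell cannot be told apart.

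**Figure D1:**
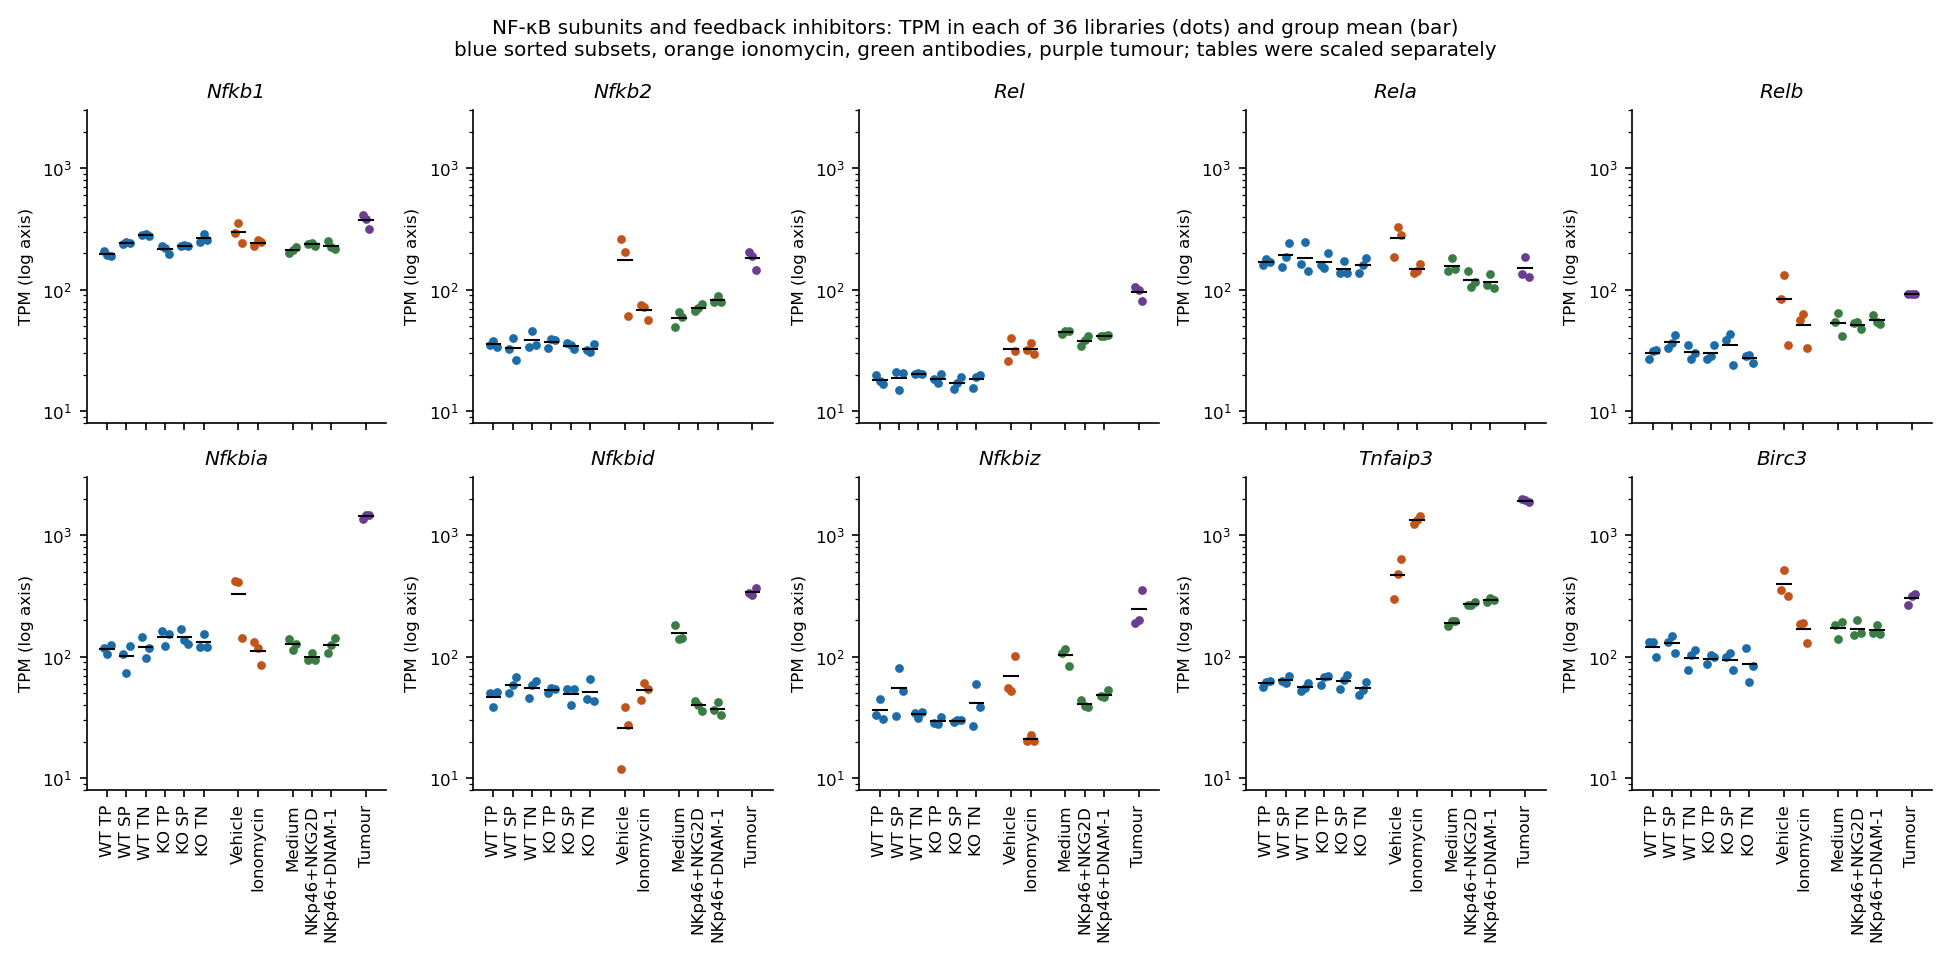
TPM (log axis) of each of the 10 genes in all 36 libraries; dots are libraries, horizontal bars are means of 3, and colours mark the 4 separately scaled tables. Levels within the sorted subsets are flat for most genes, while Nfkbid and Nfkbiz are low in both antibody groups against medium and Tnfaip3 is high after ionomycin.

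In freshly sorted mature NK cells, the subunit mRNAs were unequal. In WT TP cells Nfkb1 was the most abundant of the 10 (198 ± 10.6 TPM, SD, n = 3), followed by Rela (169 ± 10.1), which did not overlap it in any library. Birc3 (121 ± 18.6) and Nfkbia (117 ± 10.1) came next and did not differ beyond their spread. Tnfaip3 (60.5 ± 3.13) and Nfkbid (46.8 ± 7.13) followed without overlap. Nfkbiz (36.3 ± 7.47) overlapped Nfkbid above it and Nfkb2 (35.5 ± 2.07) and Relb (30.2 ± 2.75) below it, and Rel was lowest (18.1 ± 1.68). Within each library, Nfkb1 and Rela ranked above at least 88.4% of the genes tested in every subset group, and Rel above 36.1% to 43.2%. The same ordering at the top and bottom, Nfkb1 then Rela first and Rel last, was seen in the group means of all 6 subset groups.

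Nfkb1 was the single member that differed between the sorted subsets. In WT cells it stood at 211, 194 and 191 TPM in TP, at 237, 249 and 245 TPM in SP, and at 282, 290.1 and 279 TPM in TN. The 3 groups did not overlap. The TN mean was 1.43 times the TP mean, a log2 change of 0.52 on the log2(TPM + 1) scale used for all changes here (SE 0.079, 95% interval 0.35 to 0.68, limma adjusted p = 0.00167). It was the only 1 of the 10 genes called (adjusted p under 0.05), against 1.31% of the 12018 genes tested and 0.682% called higher in TN. The steps between neighbours were smaller and were not called: SP was above TP by 0.30 (adjusted p = 0.234) and TN above SP by 0.22 (adjusted p = 0.264).

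In KO cells Nfkb1 took the same order. It stood at 229, 223 and 197 TPM in TP, at 229, 234 and 231 TPM in SP, and at 246, 290.1 and 257 TPM in TN, and again no group overlapped another, although the TP and SP libraries nearly met. The KO difference between TN and TP was 0.29 (SE 0.079, limma adjusted p = 0.199) and was not called. The difference between genotypes in this step, tested as an interaction, was -0.23 (95% interval -0.46 to 0.01, adjusted p = 0.80), so no difference between WT and KO was shown, and the interval runs from a step smaller in KO to none. NK markers summed to 18420 to 19138 TPM in WT TN and 20915 to 22136 TPM in WT TP. Markers on this list went both ways, with means in TN and TP of 7987 and 9967 TPM for Gzma and 531 and 319 TPM for Eomes. Ighm stood at 268 to 291 TPM in WT TN against 125 to 148 TPM in WT TP. The part of these markers in the Nfkb1 difference was not tested. When the fit held the WT TN and TP libraries alone, with fewer libraries to estimate the spread, the adjusted p was 0.0944 and the call was lost.

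**Figure D2:**
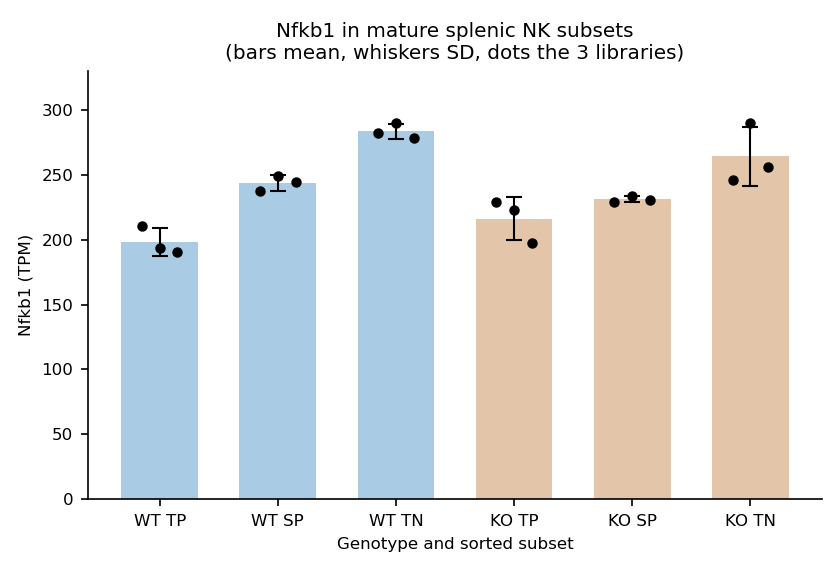
Nfkb1 in TPM (axis from 0) in the 6 groups of sorted splenic NK cells; bars are means, whiskers SD and dots the 3 libraries of a group. In WT the TN libraries (279 to 290.1 TPM) all lie above the SP libraries (237 to 249), which lie above the TP libraries (191 to 211).

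The other subunits and the inhibitors were not called in any of the 9 subset and genotype comparisons or in the interaction. No member was called between WT SP and TP (0.191% of genes called), WT TN and SP (0.383%), KO TN and TP (0.524%), KO SP and TP (0.200%), KO TN and SP (0.0416%), KO and WT within TP (1.59%), within SP (1.35%) or within TN (0.716%), or in the interaction (0.0250%). At an unadjusted limma p under 0.05 these comparisons held 1, 2, 1, 0, 1, 0, 3, 0 and 0 of the 10 members in that order, against 7.71%, 12.1%, 6.43%, 2.93%, 2.77%, 11.8%, 11.7%, 10.5% and 6.27% of all genes tested, so most of these counts are near what all genes show. Among the 9 genes other than Nfkb1, 95% intervals of the WT TN to TP change were narrowest for Tnfaip3 (-0.38 to 0.17) and widest for Nfkbiz (-0.67 to 0.51), which bounds what a difference could have been.

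The 3 members at an unadjusted p under 0.05 between genotypes were all in SP cells, where 11.7% of all genes were at that level, and none of them was called. Nfkbia stood at 127 to 171 TPM in KO SP and at 73.0 to 124 TPM in WT SP (log2 difference 0.55, adjusted p = 0.219). Nfkbiz stood at 28.9 to 30.4 TPM in KO SP and at 32.7 to 81.1 TPM in WT SP (-0.78, adjusted p = 0.245), and Birc3 at 77.6 to 108 TPM and 109 to 147 TPM (-0.44, adjusted p = 0.416). With Nfkb1, 4 of the 10 members did not overlap between the genotypes in SP cells, against 18.9% of genes tested.

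Of the 64 genes in lists of the pathway outside the 10 members, 55 were tested in this table, and few were called. In WT, Ccl3, a chemokine gene and NF-κB target, was higher in TN than in TP (235 against 161 TPM, log2 change 0.54, adjusted p = 0.0281). Ltb, which encodes lymphotoxin β, was lower in SP than in TP (4.37 against 26.1 TPM, -2.38, adjusted p = 0.00824), and higher in TN than in SP (1.92, adjusted p = 0.0345, or 0.0681 with the replicate number as a block). Malt1, which encodes a protease of the pathway, was higher in KO than in WT TP cells (198 against 127 TPM, 0.64, adjusted p = 0.00896). Ccl4 was lower in KO than in WT in SP cells (64.2 against 135 TPM, -1.06, adjusted p = 0.00162) and in TN cells (71.4 against 128 TPM, -0.84, adjusted p = 0.0203), and Ccl3 was lower in KO SP cells (-0.52, adjusted p = 0.0330). Thus 1 of 55 (1.82%) was called in each of the 3 WT subset comparisons. All genes gave 1.31% between TN and TP, 0.191% between SP and TP and 0.383% between TN and SP. In the 3 KO subset comparisons 0 of 55 were called, against 0.0416% to 0.524% of all genes. Between genotypes 1, 2 and 1 of 55 were called in TP, SP and TN (1.82%, 3.64% and 1.82%), against 1.59%, 1.35% and 0.716%. With 1 or 2 genes, these counts are not read as a trait of the lists. Among early-response genes, Egr1 alone was called, in KO against WT SP cells (2.51 against 16.7 TPM, -2.33, adjusted p = 0.00201).

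Across the 18 subset libraries the members did not move as a block. The highest Pearson correlation between 2 members was 0.38 (Nfkb1 with Nfkbid) and the lowest was -0.66 (Nfkbia with Birc3), over log2(TPM + 1) values that share library and group. The genes most like Nfkb1 were Igf2r (r = 0.889), the Ly49 pseudogene Klra13-ps (0.887) and Klhl30 (0.880). Those most like Nfkb2 were Fnbp1 (0.829), Itpr2 (0.80) and Zfp445 (0.771), and those most like Nfkbia were Bmpr2 (0.833), Zfp282 (0.804) and Rps4l (0.798). Tmem209 (0.839) was closest to Nfkbiz, Bahd1 (0.830) to Birc3, Chmp6 (0.784) to Rela, Lmf2 (0.768) to Nfkbid, Eif2s3y (0.754) to Rel, Snx11 (0.751) to Tnfaip3 and Spsb3 (0.748) to Relb. No member was among the 3 genes most like another member. Only 3 places among 12018 tested genes were open, so this says little about the members.

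In the ionomycin experiment the control libraries varied, and vehicle replicate 3 stood apart in its NK and neutrophil marker sums. NK markers summed to 14062 and 13828 TPM in vehicle replicates 1 and 2 but to 7796 TPM in vehicle replicate 3, and to 5707 to 7275 TPM in the ionomycin libraries. Single markers did not all follow this sum. Gzma stood at 6271, 5833 and 3222 TPM in vehicle replicates 1, 2 and 3 and at 867 to 1344 TPM with ionomycin. Eomes went the other way, at 160, 322 and 431 TPM and at 587 to 801 TPM. Itgam was also highest among vehicle libraries in replicate 3 (239 TPM, against 66.4 and 182). The 5 neutrophil markers were each above 0 in vehicle replicate 3, with a sum of 349 TPM, and they summed to 119 TPM in ionomycin replicate 3 and to at most 2.19 TPM in the other 4 libraries. Vehicle replicate 3 was also low in Nfkb2, Relb and Nfkbia. Vehicle replicate 1 differed in other genes. It was low in Ier2 (64.4 TPM, against 164 and 217 in replicates 2 and 3), Klrb1c (206, against 506 and 471) and Nfkbid (11.9, against 38.5 and 27.7). T-cell markers summed to 12.8 to 25.3 TPM with ionomycin and 2.24 to 7.87 TPM with vehicle, and Cd4 and Cd8a were at 0 in all 6 libraries. The members' changes are given with all 6 libraries and then without vehicle replicate 3; the part of the other cells' RNA in them was not tested.

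After 22 h with ionomycin, Tnfaip3 was higher and Nfkbiz and Birc3 were lower than with vehicle, and the 5 subunits were not called. Tnfaip3 stood at 1230.5, 1348 and 1430.2 TPM with ionomycin and at 302, 480 and 637 TPM with vehicle, a mean 2.83 times as high (log2 change 1.56, SE 0.271, limma adjusted p = 0.0215). Every ionomycin library lay above every vehicle library. Ncr1, the gene of NKp46, stood at 94.0 to 141 TPM with ionomycin and 512 to 1073 TPM with vehicle, and the part of this and of the lower NK marker sum in the members' changes was not tested. These 3 of 10 members compare with 2.91% of the 14372 genes called, 1.66% higher and 1.25% lower.

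Birc3 stood at 188, 191 and 129 TPM with ionomycin and at 356, 519 and 317 TPM with vehicle (-1.22, SE 0.259, adjusted p = 0.0460). Nfkbiz stood at 20.4, 22.6 and 20.2 TPM with ionomycin and at 55.7, 52.8 and 102 TPM with vehicle (-1.63, SE 0.329, adjusted p = 0.0383). In both genes the groups did not overlap, and vehicle replicate 3 was the highest library for Nfkbiz and the lowest vehicle library for Birc3. With the replicate number as a block, Nfkbiz was no longer called (adjusted p = 0.0518) and Nfkbia was (adjusted p = 0.0355). Birc3 was no longer called with 0.1 in place of 1 added to the TPM (limma adjusted p = 0.0510). It was also lost with 2 other scalings between libraries (limma adjusted p = 0.0588 and 0.0578). Of 13 alternative fits for each gene, 9 lost the Birc3 call, 7 the Nfkbiz call and 6 the Tnfaip3 call.

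Nfkbia, the gene of IκBα, stood at 132, 119 and 85.2 TPM with ionomycin and at 423, 415 and 144 TPM with vehicle. The log2 change of -1.40 was not called (adjusted p = 0.132). Nfkb2 stood at 74.8, 72.1 and 56.9 TPM with ionomycin and at 264, 204 and 61.1 TPM with vehicle (-1.13, adjusted p = 0.324). In both genes vehicle replicates 1 and 2 were far above all ionomycin libraries and vehicle replicate 3 was close to them. Without vehicle replicate 3, Nfkbia (-1.92, adjusted p = 0.00604) and Nfkb2 (-1.76, adjusted p = 0.00880) were called too, and 5 of 10 members were called in all, against 5.00% of 14246 genes. Low Nfkb2 and Nfkbia were among the traits by which vehicle replicate 3 stood apart. These 2 calls, and the count of 5 that holds them, are thus no independent support. Ionomycin replicate 3, which also held neutrophil marker RNA, was kept in this fit. Without vehicle replicate 3, Tnfaip3 changed by 1.81 (adjusted p = 0.00604), Birc3 by -1.36 (adjusted p = 0.0280) and Nfkbiz by -1.33 (adjusted p = 0.0445).

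Of the remaining genes, Rela stood at 137, 143 and 162 TPM with ionomycin and at 185, 327 and 283 TPM with vehicle (-0.80, adjusted p = 0.152), without overlap. Nfkbid went the other way, at 43.99, 61.1 and 54.6 TPM against 11.9, 38.5 and 27.7 TPM, without overlap and without a call (1.14, adjusted p = 0.254). Nfkb1 (-0.27, 95% interval -0.74 to 0.21), Relb (-0.57, -1.66 to 0.52) and Rel (0.02, -0.66 to 0.70) were not called, and their groups overlapped. Without vehicle replicate 3, Relb was at -1.08 (95% interval -1.92 to -0.25, adjusted p = 0.154), further from 0 and still not called. Without it Rela was at -0.74, Nfkbid at 1.25, Nfkb1 at -0.40 and Rel at 0.01, and none of them was called. In all, 6 of the 10 members did not overlap between the groups, against 20.1% of genes tested, and 7 had an unadjusted p under 0.05, against 15.1% of genes tested. The median change over the 10 members was -0.69, against 0.00 over all genes tested, and -0.91 against 0.07 without vehicle replicate 3. Low members were among the traits of that library, so the median without it is no independent support.

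On simulated data with the spread of this experiment, the fit called 3 of 100 genes changed by a log2 of 1. It called 33 of 100 changed by 2, so a gene not called may still have changed. Each simulated gene had 1 spread for both groups, so these rates are only a guide to the real libraries. The calls in this experiment rest on few libraries. Leaving out any 1 of ionomycin replicates 1, 2 and 3 or vehicle replicate 2 left 0 members called. Over all genes these fits called 80 of 14299, 49 of 14276, 43 of 14295 and 143 of 14360, against 418 of 14372 with all 6 libraries. Leaving out vehicle replicate 1 left 4 members called, with 635 of 14343 genes. Leaving out both libraries numbered 3 left 1, Nfkbia (-1.73, limma adjusted p = 0.0472), with 84 of 14111 genes. Tnfaip3 was then at 1.76 (adjusted p = 0.0677). Calls over all genes thus fell and rose as well.

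**Figure D3:**
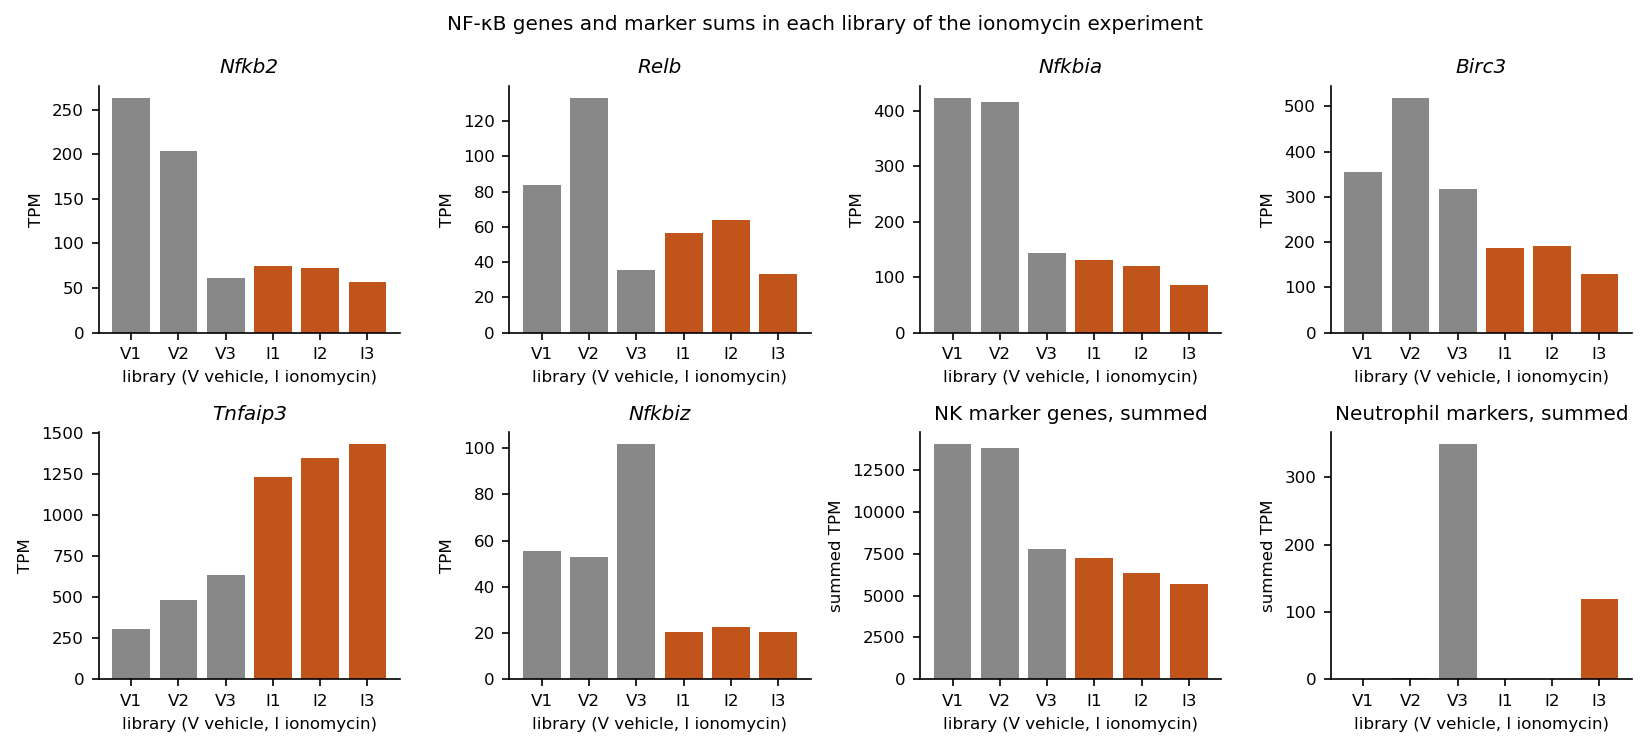
TPM of 6 member genes, and summed TPM of the NK and neutrophil marker lists, in each vehicle (V1 to V3, grey) and ionomycin (I1 to I3, orange) library; all axes start at 0. Tnfaip3 is higher in all ionomycin libraries, and V3 is near the ionomycin libraries for Nfkb2, Relb, Nfkbia and the NK marker sum and holds the most neutrophil marker RNA (349 TPM).

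Among pathway genes outside the members, 5 of 61 tested were called with ionomycin, 3 higher and 2 lower, against 2.91% of all genes tested. Tnip3, which encodes a partner of A20, was listed at 0 in all vehicle libraries and had a mean of 54.2 TPM with ionomycin. N4bp1, another negative regulator, rose from 39.8 to 117 TPM (1.60, adjusted p = 0.0378), and Cd83, a target gene, from 2.37 to 44.2 TPM (4.25, adjusted p = 0.0205). Bcl3, which like Nfkbid and Nfkbiz encodes an atypical IκB protein, fell from 142 to 20.7 TPM (-2.50, adjusted p = 0.0479), and Icam1, an adhesion molecule gene and target, from 242 to 31.7 TPM (-2.76, adjusted p = 0.0121). No kinase or adaptor gene was called. Without vehicle replicate 3, 16 of 61 pathway genes were called, the 5 above among them, against 5.00% of all genes tested. That library stood apart partly by low genes of this pathway (Nfkb2, Relb and Nfkbia), so this count is no independent support. The further 11, named after their values were seen, were Bcl2a1b (20.3 to 128 TPM) and Bcl2a1d (14.6 to 48.1 TPM), survival genes that were higher with ionomycin, and 9 genes that were lower: Nfkbie, Chuk, Traf1, Traf2, Tnip1, Bcl2l1, Gadd45b, Il2ra and Csf2. Among early-response genes, Egr1 fell (-1.43, adjusted p = 0.0300).

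For the antibody experiment, the sample titles and the table's column names put 6 of 9 samples in different groups. The column names are attached to the values and were used. With the titles instead, no member was called in any comparison, and the Nfkbid change, the largest of the experiment's members, was -0.09 for NKp46_NKG2D and -0.24 for NKp46_DNAM1. Of all 13689 genes tested, the titles gave 0 calls with NKp46_NKG2D, 1 with NKp46_DNAM1 and 0 between the pairs. The column names gave 59, 107 and 2, so the loss of calls was general. All results of this experiment hold only under the column names.

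After 48 h on either antibody pair, the mRNAs of both nuclear IκB proteins were lower and that of A20 was higher than in medium. Nfkbid stood at 184, 141 and 143 TPM in medium, at 43.1, 40.4 and 36.1 TPM with NKp46_NKG2D, and at 36.5, 42.3 and 33.4 TPM with NKp46_DNAM1. Medium lay far above both antibody groups in every library. The mean was 0.256 times that of medium with NKp46_NKG2D (log2 change -1.93, SE 0.157, limma adjusted p = 5.96e-04) and 0.240 times with NKp46_DNAM1 (-2.03, SE 0.157, adjusted p = 5.19e-04). Among the 13689 genes tested it held rank 4 and rank 2 by p.

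Nfkbiz stood at 108, 115 and 84.8 TPM in medium, at 43.95, 39.3 and 38.6 TPM with NKp46_NKG2D (-1.31, SE 0.151, adjusted p = 0.00342) and at 47.4, 46.4 and 52.9 TPM with NKp46_DNAM1 (-1.05, SE 0.151, adjusted p = 0.0171). Tnfaip3 stood at 178, 198 and 196 TPM in medium, at 269, 266 and 281 TPM with NKp46_NKG2D (0.51, SE 0.087, adjusted p = 0.0390) and at 281, 305 and 296 TPM with NKp46_DNAM1 (0.62, SE 0.087, adjusted p = 0.0149). Neither gene's antibody groups overlapped medium. Each pair thus called the same 3 of 10 members, with both pairs set against the same 3 medium libraries. The background was 0.431% of genes called with NKp46_NKG2D, 0.153% higher and 0.278% lower, and 0.782% with NKp46_DNAM1, 0.285% higher and 0.497% lower.

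The Tnfaip3 calls with both pairs and the Nfkbiz call with NKp46_DNAM1 were lost when some single libraries were left out, whereas the Nfkbiz call with NKp46_NKG2D and both Nfkbid calls were kept in all 6 such fits. Tnfaip3 was not called with NKp46_NKG2D when medium replicate 1 or any 1 NKp46_NKG2D library was left out (adjusted p up to 0.178), nor with either pair when the spread was estimated without an intensity trend or from the groups compared alone. With NKp46_DNAM1, leaving out replicate 2 or replicate 3 of that group left Nfkbid alone called, with 26 of 13705 and 30 of 13714 genes called. Leaving out replicate 1 lost Nfkbiz (limma adjusted p = 0.0643), with 45 of 13658 genes called.

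The subunits moved less. Nfkb2 stood at 49.2, 66.1 and 59.97 TPM in medium, at 67.2, 70.2 and 76.5 TPM with NKp46_NKG2D (0.29, adjusted p = 0.362) and at 79.1, 88.7 and 79.0 TPM with NKp46_DNAM1 (0.49, adjusted p = 0.128). Both antibody groups lay above medium without overlap and without a call. Rela stood at 142, 182 and 147 TPM in medium, at 142, 106 and 116 TPM with NKp46_NKG2D (-0.37, adjusted p = 0.305) and at 109, 136 and 104 TPM with NKp46_DNAM1 (-0.43, adjusted p = 0.207). Nfkb1 stood at 201 to 225 TPM in medium and at 216 to 251 TPM in the antibody libraries, with changes of 0.16 (95% interval -0.05 to 0.37) and 0.12 (-0.10 to 0.33). For Relb the changes were -0.03 (-0.42 to 0.36) and 0.09 (-0.30 to 0.48), and for Rel -0.23 (-0.54 to 0.08) and -0.09 (-0.40 to 0.21).

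The classical feedback genes Nfkbia and Birc3 were not called with either pair. Nfkbia stood at 141, 114 and 127 TPM in medium, at 93.5, 108 and 94.6 TPM with NKp46_NKG2D (-0.36, adjusted p = 0.271) and at 107, 125 and 142 TPM with NKp46_DNAM1 (-0.03, adjusted p = 0.942). Birc3 stood at 141 to 193 TPM in medium and at 151 to 201 TPM in the antibody libraries (-0.02 and -0.05). Groups did not overlap medium for 7 of 10 members with NKp46_NKG2D, against 17.3% of genes tested, and for 6 of 10 with NKp46_DNAM1, against 21.1%. Medians over the 10 members were -0.13 and -0.04, with -0.04 for all genes in each comparison.

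**Figure D4:**
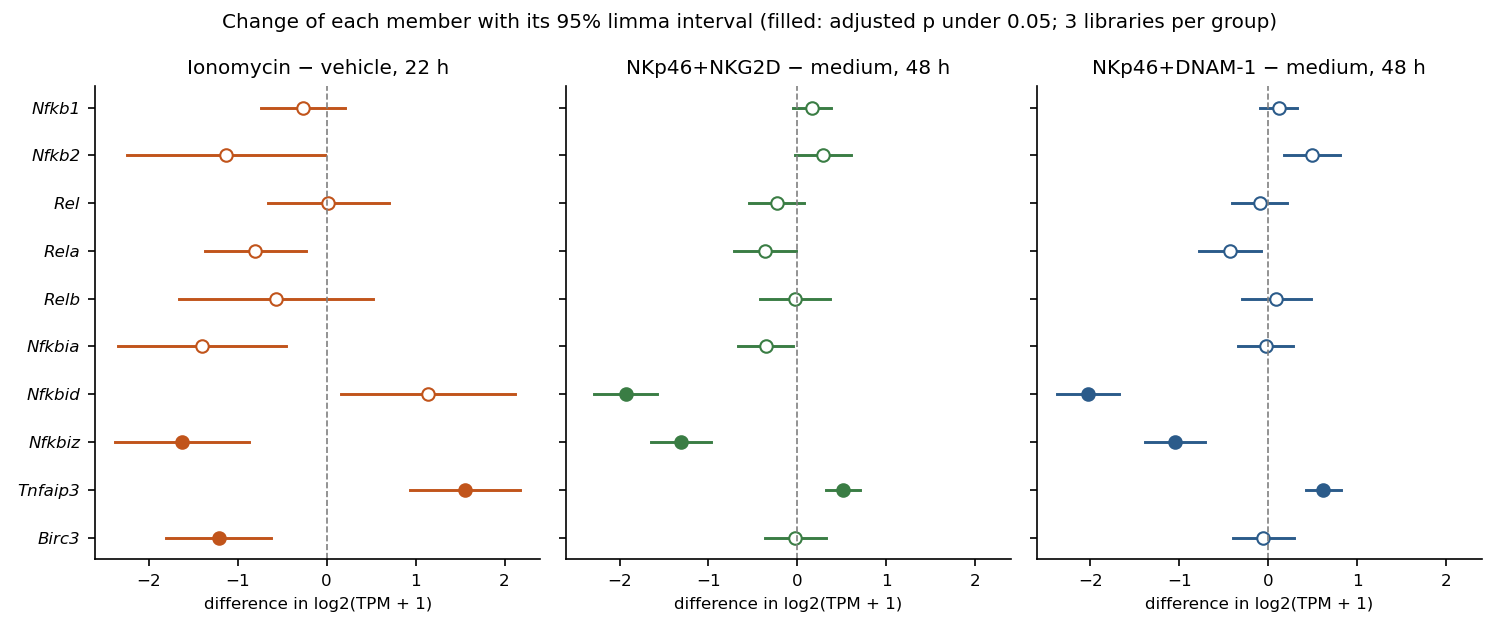
Change in log2(TPM + 1) of each of the 10 genes with its 95% limma interval, for ionomycin against vehicle and for each antibody pair against medium (3 libraries per group); filled points have an adjusted p under 0.05. Tnfaip3 is above 0 and Nfkbiz below 0 in all 3 panels, while Nfkbid is below 0 with both antibody pairs (-1.93 and -2.03) and at 1.14, not called, with ionomycin.

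Set directly against each other, the antibody pairs gave no called member, against 0.0146% of genes. At an unadjusted p under 0.05 there was 1 of 10, against 1.22% of genes. That was Nfkbia, higher with NKp46_DNAM1 by 0.33 (95% interval 0.02 to 0.64, adjusted p = 1, unadjusted p = 0.0405). The differences between pairs were -0.09 for Nfkbid (-0.44 to 0.26), 0.26 for Nfkbiz (-0.08 to 0.60) and 0.11 for Tnfaip3 (-0.08 to 0.30). A p that missed the threshold does not show that the pairs acted alike, and these intervals give the sizes that the data allow.

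Other genes moved with Nfkbid and Nfkbiz in this table. The 12 early-response and handling genes summed to 2911 to 4456 TPM in medium, 754 to 903 TPM with NKp46_NKG2D and 826 to 944 TPM with NKp46_DNAM1. Of the 10 tested, 6 fell with each pair and none rose: Fos, Junb, Egr1, Zfp36, Ier2 and Btg2, with Egr1 going from a mean of 1836 TPM in medium to 291 and 294 TPM. The chemokine genes Ccl3 (2344 TPM in medium, 492 and 555 TPM with the pairs) and Ccl4 (1698, 525 and 512 TPM) fell with both, and Tnf fell with NKp46_NKG2D (42.0 to 6.08 TPM, -2.70, adjusted p = 0.0197). These 3 of 60 and 2 of 60 pathway genes were the only ones called, against 0.431% and 0.782% of all genes tested. The median change of the 17 target genes tested was -0.03 with NKp46_NKG2D and 0.20 with NKp46_DNAM1, so the called target genes fell while the list's middle did not. Detection also differed, with 13555 to 14674 genes above 0 in medium and 16107 to 18096 with antibodies. Of the markers of other cells, Ighm stood at 183 to 216 TPM in medium, 122 to 169 TPM with NKp46_NKG2D and 144 to 177 TPM with NKp46_DNAM1, and T-cell markers summed to 27.6 to 71.6, 20.8 to 28.6 and 20.1 to 39.6 TPM, with Cd4 at 0 in all 9 libraries. The part of the early-response signal, of these markers and of the number of genes detected in the fall of Nfkbid and Nfkbiz was not tested.

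The NK cells of the MC38 B2m-/- tumours had Tnfaip3 and Nfkbia as the 2 most abundant members. Tnfaip3 stood at 1980.0, 1952 and 1872 TPM and Nfkbia at 1356, 1470.4 and 1483 TPM, above 99.5% and 99.1% to 99.3% of the genes tested in each library. The groups of values of these 2 genes did not overlap each other or any other member. Nfkb1 followed (415, 385 and 317 TPM), overlapping Nfkbid (335, 325 and 372 TPM) and Birc3 (267, 317 and 331 TPM). Nfkbiz was the most variable, at 189, 203 and 352 TPM.

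Of the other subunits, Nfkb2 stood at 206, 192 and 147 TPM, Rela at 135, 187 and 128 TPM, Rel at 106, 98.8 and 81.6 TPM and Relb at 92.4, 92.4 and 92.6 TPM. Nfkb2 and Rela overlapped, as did Rel and Relb. Replicate 3, highest in Nfkbiz, was also highest in the heat-shock genes Hspa1a (1933 TPM, against 149 and 246) and Hspa1b (3785 TPM, against 374 and 457), and lowest in Nfkb1, Nfkb2, Rela and Rel. Early-response and handling genes summed to 6055, 6447 and 11572 TPM. Collagen markers of fibroblasts summed to 32.5, 925 and 758 TPM, nearly all of it Col3a1, haemoglobin genes to 0, 208 and 333 TPM, and markers of monocytes and macrophages to 65.1, 24.6 and 18.8 TPM, with Lyz2 at 27.7 and C1qb at 21.5 TPM in replicate 1, while all 5 neutrophil markers were at 0. Their part in the members' levels was not tested, and the column names of these libraries carry terms (B2MKO and SP) that the titles do not explain.

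Within each library, the make-up of the subunit mRNAs can be given as shares of their summed TPM. In the subset groups Nfkb1 held mean shares of 43.9% to 52.6% and Rela 31.7% to 37.5%, with 6.32% to 7.86% for Nfkb2, 5.52% to 7.47% for Relb and 3.63% to 4.01% for Rel. In the ionomycin table Nfkb1 held 33.6% to 37.1% of the subunit mRNA in the vehicle libraries and 43.3% to 47.0% in the ionomycin libraries, without overlap, while the vehicle shares of Nfkb2 (9.35% to 30.9%) spanned those with ionomycin (10.7% to 14.1%). In the antibody table Rela held 28.4% to 31.8% in medium, 20.7% to 26.5% with NKp46_NKG2D and 20.1% to 24.9% with NKp46_DNAM1, and Nfkb2 held 10.1% to 11.6%, 12.5% to 15.0% and 14.6% to 16.2%, both without overlap with medium. In the tumour libraries the mean shares were 41.7% for Nfkb1, 20.3% for Nfkb2, 16.8% for Rela, 10.7% for Rel and 10.5% for Relb. These shares were not tested, and a rise in 1 share lowers the others.

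**Figure D5:**
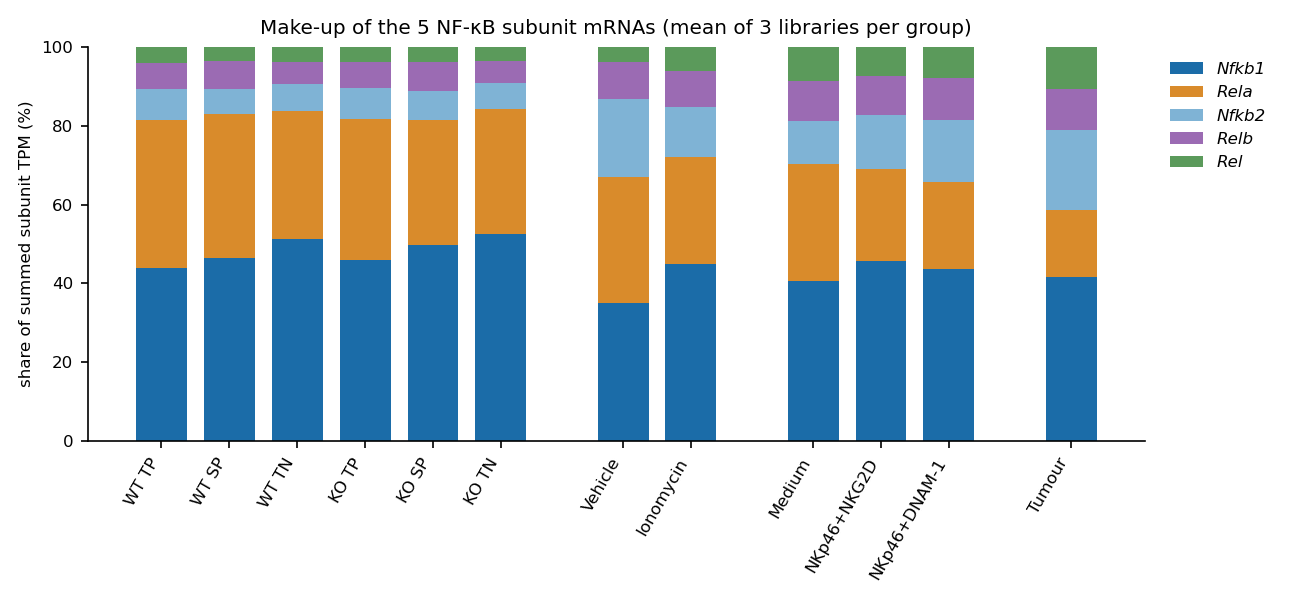
Mean share (%) of each of the 5 subunit genes in their summed TPM in the 12 groups, 3 libraries each, with the 4 tables set apart. Nfkb1 holds the largest share in every group, and Rela takes a smaller share with either antibody pair (22.0% and 23.3%) than in medium (29.7%).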

How the data were processed

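The authors deposited TPM tables; per the submitters' processing notes the tools were STAR and RSEM and the build GRCm39, with versions and annotation not given in the sources used here. Per the labels' protocols, RNA with an integrity number above 7 (50 ng) went into a KAPA mRNA kit. Depth is not recorded in TPM, so precision rests on 3 libraries per group. Per table, genes averaging 1 TPM or more over its libraries were tested on log2(TPM + 1) with limma 3.58.1 in R 4.3.3 (all groups of a table in the fit, intensity trend, two-sided), with Benjamini-Hochberg adjustment over all genes of each of 14 comparisons and calls at 0.05. With 3 against 3 an exact permutation test of 1 gene cannot go below 0.1. The labels name no batches within a table, so a difference between batches inside a table could not be checked. Fits were tested on simulated data with the spread of each tested table, in 100 genes changed by a log2 of 1 and 100 changed by 2. Noise was normal with 1 spread per gene in all groups, so the rates are only a guide. The fit called 66 and 95 of them for WT TN against TP and 66 and 90 for KO against WT in SP. It called 42 and 93 for NKp46_NKG2D against medium, and 3 and 33 for ionomycin against vehicle. A missing call for ionomycin is thus weak evidence of no change.

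The members and lists were chosen with earlier results of these data known. Named were all members, called genes of the pathway lists (at most 8 per comparison) and the genes with the highest Pearson correlation to a member. Titles call the replicates biological. Column names join the number to the genotype in the subset and antibody tables, which reads as 1 mouse per number, while vehicle and ionomycin share only a number; deviations of same-numbered libraries correlated at a mean of 0.010, 0.064 and 0.062 in the subset, antibody and ionomycin tables. Promoter sequences are RefSeq's for GRCm38.p6.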

Additional observations from a re-analysis of the deposited data

How the results depend on the processing

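Each of the 140 member changes was refitted with another pseudocount (0.1), with no filter and a filter at 5 TPM, with 2 other scalings, without the intensity trend, with the groups compared alone, with a replicate block where the groups share numbers, by titles in the antibody table, and without each library. Of the 10 called changes, none reversed: 100 of 143 alternatives kept the call and 43 lost it. Of the 130 uncalled ones, 53 changed sign in some alternative, so directions given above for uncalled changes only describe the values. With the groups compared alone, 0 members were called for WT TN against TP and 1 for NKp46_DNAM1 against medium. Of all genes, 43 of 11947 and 38 of 13728 were called in these 2 fits. For ionomycin, 0 were called with no filter (185 of 20407 genes) and 0 without the intensity trend (172 of 14372 genes). There were 0 to 5 without single libraries (43 to 712 genes). With both libraries numbered 3 left out, an alternative chosen after seeing the data, 1 was called (84 of 14111 genes). By titles, 0 were called for either antibody pair, with 0 of 13689 genes called for NKp46_NKG2D and 1 for NKp46_DNAM1. Without single libraries, 1 to 3 were called for NKp46_DNAM1 against medium, with 26 to 604 genes called over all tested. The replicate block left 1 call for WT TN against TP and 3 each for ionomycin, NKp46_NKG2D and NKp46_DNAM1, and 0 in every other comparison fitted with it; over all genes it moved the calls from 59 to 239 and from 107 to 528 for the antibody pairs. Causes of these losses were not tested. Depth is unknown, so no counting limit can be set.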
